A study of Mus musculus with 8 samples.

Results

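The genes described here are 8 transcription factors known for their roles in activated and differentiated lymphocytes: Prdm1 (Blimp-1), Irf4, Batf, Bhlhe40, Nfil3, Id2, Ahr and Runx2. They were found on the array by name, as every non-control probe whose gene name is one of the 8 or an alias, and Bhlhe40 appears in the files under its older name Bhlhb2. They hold 13 of the 41174 probes and 31 of the 43379 non-control spots on each array, and all 8 were among the 17996 genes tested out of 27670 names. The CD4+ T cells came from spleens pooled with lymph nodes, taken from C57BL/6 males aged 15 weeks, and the series title names the Ox40-cre/ROSA-YFP mouse, in which the Ox40 (Tnfrsf4) locus drives Cre and Cre switches on a YFP reporter at the ROSA locus. There were 4 groups of 2 arrays: Treg (regulatory T cells), CD44hi, CD44lo and naive. The labels give neither the sort gates nor the YFP status of a group, and they number the samples 1 and 2 without saying that these are separate animals, so each p-value reflects how far 2 such samples lie apart, and that distance may be technical. Each sample was hybridized to 1 array of 60-base probes with Cy3 label after linear amplification of its RNA.

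As background, these factors act downstream of antigen receptor and cytokine signals. Irf4 and Batf bind DNA together at composite elements, Prdm1 is a repressor that opposes memory and germinal-centre programmes, Bhlhe40 and Nfil3 are repressors that also belong to the circadian network, and Id2 holds E proteins away from DNA. Ahr is a ligand-activated factor best known for its role in IL-22 and IL-17 producing lymphocytes and in regulatory T cells of barrier tissues, and Runx2 is the Runx family member best known from bone and is also expressed in lymphocytes.

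The sequences that the results turn on are of 2 kinds. The first kind is probes that differ from the other probe of their gene. The Runx2 probe farthest upstream covers a start codon (capitals), with the frame open for the 48 bases from it to the probe's end, and as background this is the start used by the isoform from the distal of the gene's promoters. It lies at chr17:42937487-42937546 on the minus strand (mm7, as the files give coordinates). The brightest Runx2 probe lies 209684 bases downstream at chr17:42727803-42727862, and its first 30 bases are shown. The second Id2 probe, at chr12:22931820-22932167 on the minus strand, spans 348 genomic bases with 60 bases of sequence, so 288 bases between its ends are not in it, and it ends on a stop codon (capitals) after 57 open bases.
Runx2 upstream probe: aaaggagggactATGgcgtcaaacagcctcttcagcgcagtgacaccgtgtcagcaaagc
Runx2 brightest probe, first bases: caaagggactatttgtattgtatgttgcaa
Id2 second probe: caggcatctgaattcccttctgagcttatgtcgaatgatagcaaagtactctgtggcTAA

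The second kind is promoter windows of 300 bases, from 250 before to 50 after the start, taken from RefSeq on GRCm38.p6, in which letters bound by factors of the set were searched on both strands. RefSeq windows were matched for 6 of the 8 genes (Prdm1, Irf4, Batf, Nfil3, Id2 and Runx2). The windows of Prdm1 (chr10:44458699-44458998, minus strand) and Runx2 (chr17:44814578-44814877, minus strand) are shown because they held the most matches to factors of the set. In the Prdm1 window the capitals mark an AP-1 match, TGANTCA, with its first base 48 bases before the start, and 2 matches to the Ahr core GCGTG, both on the opposite strand as CACGC, at 109 and 77 bases before the start. In the Runx2 window they mark 3 matches to the Runx letters ACCACA, 1 beginning 80 bases before the start and the others at bases 24 and 32 of the transcript.
Prdm1 window: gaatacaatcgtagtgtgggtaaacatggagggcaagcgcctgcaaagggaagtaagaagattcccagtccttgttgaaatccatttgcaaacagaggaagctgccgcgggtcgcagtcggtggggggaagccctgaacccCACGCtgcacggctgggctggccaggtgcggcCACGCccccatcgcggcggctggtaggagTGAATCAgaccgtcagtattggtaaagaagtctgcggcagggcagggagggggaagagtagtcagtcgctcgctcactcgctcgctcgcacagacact
Runx2 window: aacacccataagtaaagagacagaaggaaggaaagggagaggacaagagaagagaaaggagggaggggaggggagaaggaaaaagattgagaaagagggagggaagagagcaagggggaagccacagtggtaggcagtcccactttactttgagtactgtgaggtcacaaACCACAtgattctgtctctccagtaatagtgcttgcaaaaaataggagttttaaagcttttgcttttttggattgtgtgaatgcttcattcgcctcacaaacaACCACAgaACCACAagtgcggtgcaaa

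These letters are common, and a match describes the window only. Which of the Runx2 promoters its window covers was not determined, since the probes are placed on another build. The matches there are not tied to the probe that measured Runx2. Of 32851 RefSeq windows of the same length, 7.81% hold TGANTCA, 32.4% hold GCGTG and 16.8% hold ACCACA. The Batf window held 2 ACCACA matches and the Irf4 window 1 GCGTG match. The E-box of E proteins, CAGNTG, stood once in each of the Batf, Id2, Nfil3 and Prdm1 windows and is in 51.4% of all windows. The tandem IRF sites (GAAA, 2 bases of any kind, GAAA), the Prdm1 letters AAAGTGAAA, the class B E-box CACGTG and the D-box TTANGTAA were not found in any of the 6 windows, and 3.44%, 0.594%, 7.15% and 2.32% of all windows hold them.

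Coverage and signal were lowest on the naive arrays. Between 59.2% and 68.8% of probes were well above background, and the processed signal had a 75th percentile of 1165 and 1337 in Treg, 1208 and 1189 in CD44hi, 1045 and 1065 in CD44lo, and 990.7 and 639.3 in naive, lowest in naive replicate 2. Each of the 2 slides held 1 array of each group. All 9 CD4 T cell markers, among them Cd3e, Cd4 and Lck, were well above background on every array. The 5 regulatory T cell markers (Foxp3, Il2ra, Ikzf2, Ctla4 and Ikzf4) summed to 30.3 to 31.8 times the array's 75th percentile in Treg, 7.72 to 9.28 in CD44hi, 8.23 to 11.5 in CD44lo and 0.353 to 0.451 in naive. CD44hi and CD44lo thus carried regulatory T cell transcripts, and in sorted pools a change in the number of cells that express a gene and a change in its RNA per cell cannot be told apart.

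Nearly the whole set was higher in the 3 non-naive groups than in naive cells. With limma across all genes and a call at an adjusted p under 0.05, 6 of the 8 were higher in Treg against naive, where 11.6% of all tested genes were called higher and 21.9% were called in either direction. All 8 were higher in CD44hi against naive, where 13.2% of all genes were called higher and 27.8% in either direction. In CD44lo against naive 6 of 8 were higher, where 4.53% of all genes were called higher (815, beside 137 called lower) and 5.29% in either direction. That last split depended on the scaling, with 700 higher and 321 lower after background correction by normexp and quantile normalization. The median log2 difference of the 8 was 2.97 in Treg, 2.67 in CD44hi and 2.03 in CD44lo against naive, beside medians over all genes of -0.20, -0.15 and -0.13. These comparisons share the naive arrays. Id2 ran the other way in Treg against naive, at -0.45, which was not called. The CD44lo and naive arrays of Batf overlapped.

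Fewer of the 8 differed among the non-naive groups. In Treg against CD44lo, 3 were higher (Irf4, Ahr and Runx2), where 3.7% of all genes were called higher and 5.56% in either direction. In CD44hi against CD44lo, 4 were higher (Id2, Irf4, Ahr and Runx2), where 6.06% were called higher and 9.37% in either direction. In Treg against CD44hi, 2 were lower (Id2 and Runx2), where 4.04% were called lower and 8.19% in either direction. The medians of the 8 log2 differences were 0.91, 0.91 and -0.06 in these 3 comparisons.

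**Figure D1:**
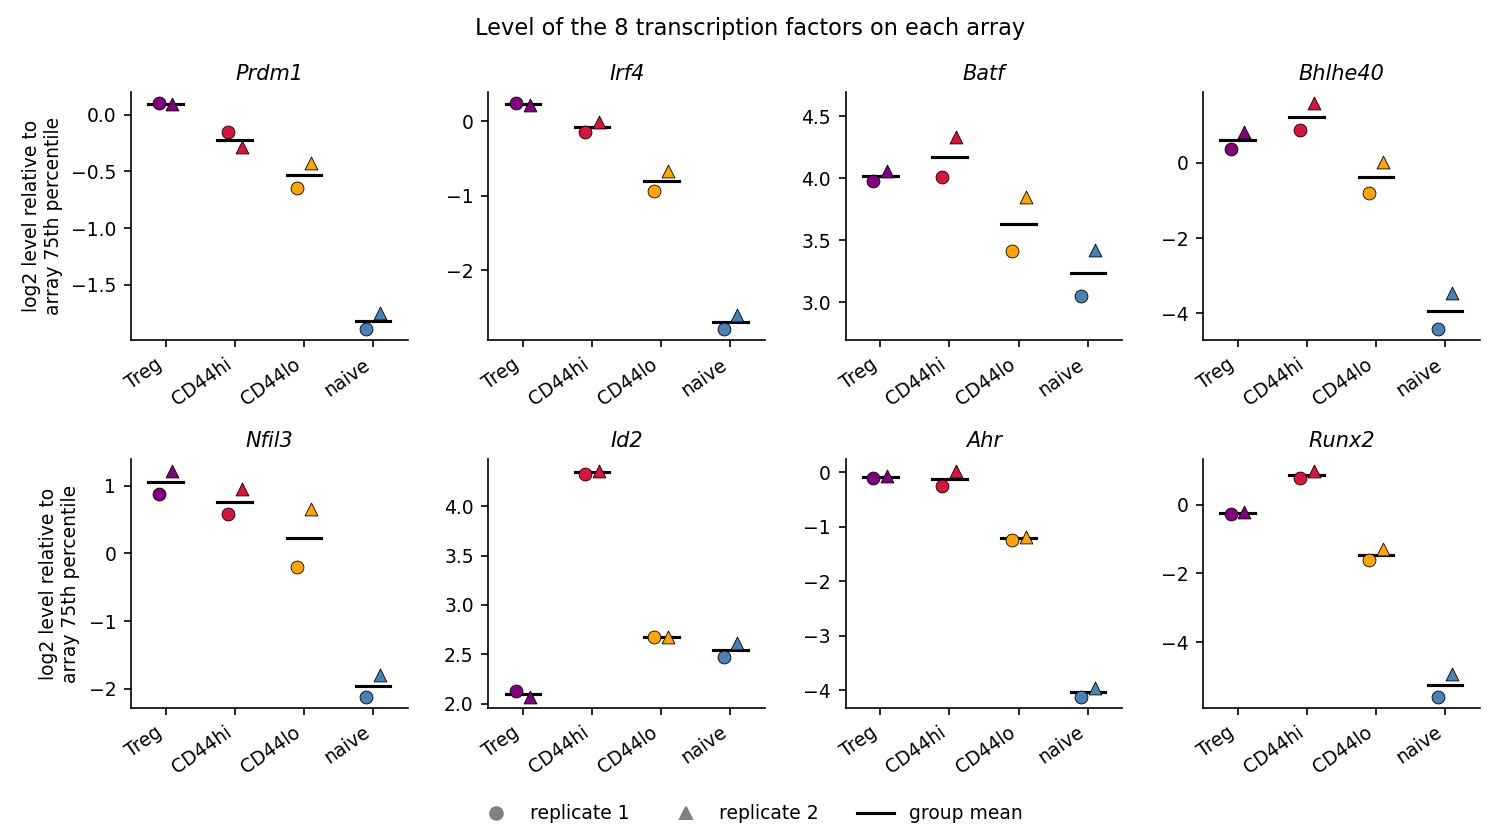
Level of each of the 8 factors on each array, as log2 of the processed signal relative to the array's 75th percentile (each panel has its own y axis, so levels are not compared between panels). Columns are Treg, CD44hi, CD44lo and naive, circles are replicate 1, triangles are replicate 2 and bars are group means; the naive mean is lowest in every panel except that of Id2, where Treg is lowest and CD44hi stands at 4.33 and 4.36.

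**Figure D2:**
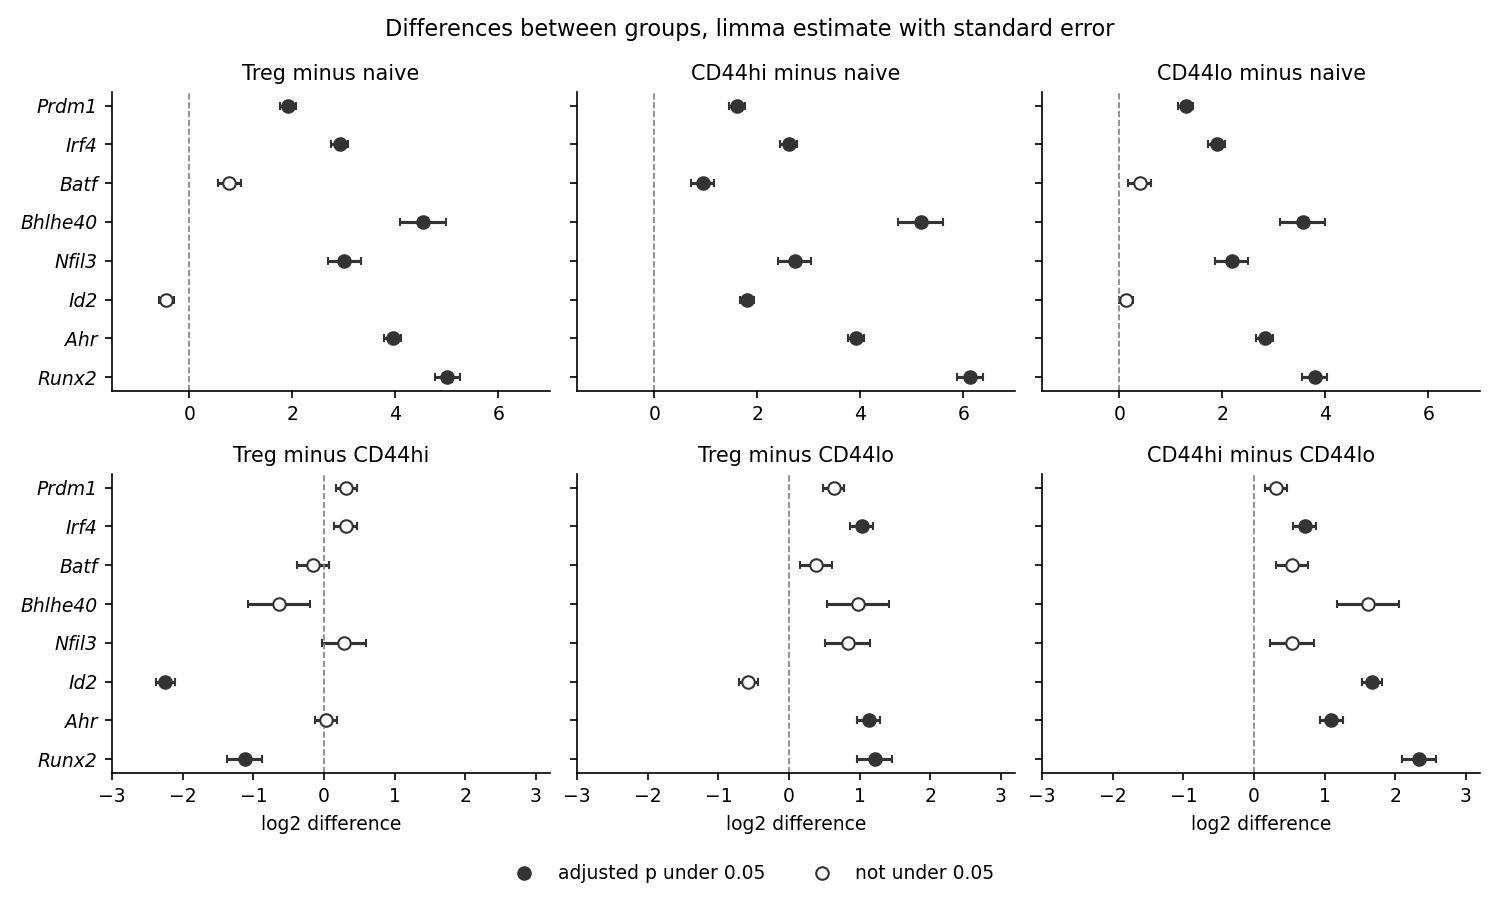
The log2 difference between groups for each factor (x axis) with its limma standard error, in the 6 comparisons; filled points passed an adjusted p of 0.05. The top row, against naive, shows Runx2 and Bhlhe40 farthest to the right under this scaling, and the bottom row shows Id2 and Runx2 as the filled points below 0 in Treg minus CD44hi.

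Prdm1 encodes Blimp-1, the repressor that marks plasma cells and effector T cells, and its 1 probe lies at chr10:44250799-44250858 (mm7, minus strand). As a log2 level relative to the array's 75th percentile, the unit of all levels below, it stood at 0.10 and 0.10 in Treg, -0.16 and -0.28 in CD44hi, -0.64 and -0.42 in CD44lo, and -1.89 and -1.75 in naive. The 4 groups fell in that order without overlap. Prdm1 was 3.78-fold higher in Treg than in naive (log2 1.92 ± 0.15 SE, adjusted p = 3.1e-04), 3.03-fold higher in CD44hi (1.60 ± 0.15, adjusted p = 5.4e-04) and 2.44-fold higher in CD44lo (1.29 ± 0.15, adjusted p = 0.00425). Within the slides the Treg difference was 1.85 and 1.99, the CD44hi difference 1.59 and 1.61, and the CD44lo difference 1.32 and 1.25. The CD44lo call was lost without CD44lo replicate 2 (1.18, adjusted p = 0.0547). The differences among the non-naive groups, 0.32 ± 0.15 in Treg against CD44hi, 0.63 ± 0.15 in Treg against CD44lo and 0.31 ± 0.15 in CD44hi against CD44lo, did not pass (adjusted p = 0.306, 0.0698 and 0.289). The Treg against CD44lo difference passed after normexp and quantile normalization (adjusted p = 0.0365), on the authors' deposited value table (0.0374) and with an intensity trend (0.0443). It did not pass under the remaining settings that kept all arrays.

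Markers of plasma cells, which also express Prdm1 and Irf4, moved with 2 of the groups. The summed level of the 8 plasma cell markers was 8.09 to 11.7 times the 75th percentile in Treg, 10.1 to 15.4 in CD44hi, 3.94 to 4.09 in CD44lo and 3.47 to 4.06 in naive. Of 7 tested, 5 rose and 1 fell in Treg against naive, and 6 rose and 1 fell in CD44hi against naive, including Jchain, the joining chain of secreted antibodies (30.4-fold in Treg and 38.7-fold in CD44hi). Sdc1 and Tnfrsf17 were not well above background in naive, and Tnfrsf17 was not in CD44lo either. Sdc1 passed the filter only through other groups, so its part in the counts of rises was partly fixed by the filter. In CD44lo the summed level overlapped that of naive and limma called 0 of the 7 against naive. Of these, 4 had an unadjusted p under 0.05, and the list median was 0.41 beside -0.13 for all genes. B cells are a lineage that also expresses Irf4, Irf8 and Prdm1, and the sum of their markers differed too. The 8 B cell markers summed to 3.67 to 3.97 in Treg, 1.3 to 1.52 in CD44hi, 0.929 to 1.17 in CD44lo and 0.222 to 0.411 in naive. Of 6 tested, 2 rose in Treg, 3 in CD44hi and 1 in CD44lo against naive, with Cd79b, a B cell receptor chain, at 4.40 ± 0.33, 2.78 ± 0.33 and 2.40 ± 0.33 on the log2 scale (adjusted p = 2.6e-04, 0.00147 and 0.00823). Its CD44lo call was lost without CD44lo replicate 2 (0.0654). Cd79a did not pass in any of these, and Blk and Fcer2a were not well above background in Treg, CD44lo and naive. Ms4a1 and Pax5 were not well above background in naive, and Pax5 was not in Treg either. Any rise of Ms4a1 or Pax5 was thus partly fixed by the filter. The B cell list medians against naive were -0.43 in Treg, 1.23 in CD44hi and 0.03 in CD44lo, beside -0.20, -0.15 and -0.13 for all genes. The list as a whole thus did not rise in Treg. The part of plasma and B cell transcripts in the Prdm1, Irf4 and Irf8 values was not tested.

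Irf4 is induced by antigen receptor signals, and its probe lies at chr13:30132137-30132196 (mm7, plus strand). It stood at 0.24 and 0.22 in Treg, -0.15 and -0.01 in CD44hi, -0.94 and -0.66 in CD44lo, and -2.79 and -2.59 in naive. The groups again followed each other in this order without overlap. Against naive it was 7.59-fold higher in Treg (2.92 ± 0.16, adjusted p = 8.6e-05), 2.61 ± 0.16 higher on the log2 scale in CD44hi and 1.89 ± 0.16 higher in CD44lo (adjusted p = 1.1e-04 and 0.00111). Within the slides these differences were 2.84 and 3.01 in Treg, 2.45 and 2.78 in CD44hi, and 1.93 and 1.85 in CD44lo.

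Irf4 was also 2.05-fold higher in Treg than in CD44lo (1.03 ± 0.16, adjusted p = 0.0175) and 1.65-fold higher in CD44hi than in CD44lo (0.72 ± 0.16, adjusted p = 0.0418). Both calls rested on 2 arrays a group. The Treg call was lost without Treg replicate 1 or 2 (adjusted p = 0.107 and 0.12) and without CD44lo replicate 1 or 2 (0.16 and 0.0587). The CD44hi call was lost without CD44hi replicate 1 or 2 (0.118 and 0.251), without CD44lo replicate 1 or 2 (0.333 and 0.102) without either Treg array (0.0929 each) with the slide as a block (0.0692) and in the fit of these 2 groups alone (0.0673). Without the filter on dim probes both were lost (0.0679 and 0.125). Treg and CD44hi differed by 0.31 ± 0.16, which did not pass (adjusted p = 0.353).

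Batf, the AP-1 partner of Irf4, was measured by 1 probe at chr12:83710402-83710460 (mm7, plus strand). It stood at 3.97 and 4.05 in Treg, 4.01 and 4.33 in CD44hi, 3.41 and 3.85 in CD44lo, and 3.05 and 3.42 in naive. The naive and CD44lo arrays overlapped, and every Treg and CD44hi array lay above both. It was 1.91-fold higher in CD44hi than in naive (0.93 ± 0.22, adjusted p = 0.0236, with 0.59 and 1.28 within the slides), and that call was lost without CD44hi replicate 2 (adjusted p = 0.136), without naive replicate 1 (0.0535), in the fit of these 2 groups alone (0.0822) and without the filter on dim probes (0.068). The differences of 0.78 ± 0.22 in Treg and 0.39 ± 0.22 in CD44lo against naive did not pass (adjusted p = 0.0515 and 0.341). Other scalings moved the Treg difference past the threshold, with 1.02 and an adjusted p of 0.00304 after normexp and quantile normalization and 1.02 and 0.00368 on the authors' deposited value table.

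Bhlhe40, a basic helix-loop-helix repressor, was read by 1 probe at chr6:108760353-108760412 (mm7, plus strand). It stood at 0.37 and 0.83 in Treg, 0.88 and 1.58 in CD44hi, -0.79 and 0.03 in CD44lo, and -4.42 and -3.46 in naive. CD44hi was highest and naive lowest, with no overlap between any groups, and the 2 arrays of a group lay farther apart than for Prdm1 or Irf4. Against naive it was 23.2-fold higher in Treg (4.54 ± 0.44, adjusted p = 7.0e-04), 36-fold higher in CD44hi (5.17 ± 0.44, adjusted p = 3.4e-04) and 11.8-fold higher in CD44lo (3.56 ± 0.44, adjusted p = 0.00492). After normexp and quantile normalization the same folds were 11.6, 18.1 and 6.19, and 12.6, 19.4 and 6.5 on the authors' deposited value table, all still called. Slides 1 and 2 taken alone gave 3.83 and 5.25 for Treg, 4.34 and 6.01 in CD44hi, and 3.49 and 3.63 in CD44lo. Its differences of 0.98 ± 0.44 in Treg and 1.61 ± 0.44 in CD44hi against CD44lo did not pass (adjusted p = 0.309 and 0.0762), and the CD44hi difference reached an adjusted p of 0.0212 (log2 1.55) after normexp and quantile normalization. In Treg against CD44hi the difference was -0.63 ± 0.44 (adjusted p = 0.493).

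Nfil3, a basic leucine zipper repressor of D-box sites that is needed for NK and innate lymphoid cell development, had 2 probes 284 bases apart on chr13 (52008023-52008082 and 52008307-52008366, mm7, minus strand). The brighter probe stood at 0.89 and 1.22 in Treg, 0.58 and 0.95 in CD44hi, -0.21 and 0.65 in CD44lo, and -2.12 and -1.80 in naive. All non-naive arrays lay above both naive arrays, while CD44hi overlapped both Treg and CD44lo. It was 8.06-fold higher in Treg than in naive (3.01 ± 0.31, adjusted p = 9.5e-04), 6.6-fold higher in CD44hi (2.72 ± 0.31, adjusted p = 0.00125) and 4.53-fold higher in CD44lo (2.18 ± 0.31, adjusted p = 0.00964). Within the slides these were 2.68 and 3.34 in Treg, 2.38 and 3.07 in CD44hi, and 2.45 and 1.91 in CD44lo. The second probe gave 3.01 ± 0.32, 2.86 ± 0.32 and 2.33 ± 0.32 for the same comparisons. The CD44lo call was lost without naive replicate 2 (2.34, adjusted p = 0.0583). None of the differences among the non-naive groups passed, at 0.29 ± 0.31 in Treg against CD44hi, 0.83 ± 0.31 in Treg against CD44lo and 0.54 ± 0.31 in CD44hi against CD44lo (adjusted p = 0.686, 0.226 and 0.374).

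Id2 had a pattern of its own among the 8. This inhibitor of E proteins, which favours effector over follicular and memory fates in T cells, stood at 2.12 and 2.07 in Treg, 4.33 and 4.36 in CD44hi, 2.67 and 2.67 in CD44lo, and 2.47 and 2.62 in naive on its brighter probe (chr12:22930541-22930600, mm7, minus strand). CD44hi stood far above the other groups and Treg was lowest, with no overlap. It was 3.48-fold higher in CD44hi than in naive (1.80 ± 0.14, adjusted p = 2.2e-04) and 3.19-fold higher than in CD44lo (1.67 ± 0.14, adjusted p = 0.00187). In Treg it was 4.75-fold lower than in CD44hi (-2.25 ± 0.14, adjusted p = 5.2e-04). The differences of -0.45 ± 0.14 in Treg and 0.13 ± 0.14 in CD44lo against naive and of -0.57 ± 0.14 in Treg against CD44lo did not pass (adjusted p = 0.0613, 0.578 and 0.0673). With all arrays kept, the Treg against naive difference passed only with an intensity trend (adjusted p = 0.0296). The Treg against CD44lo difference passed after normexp and quantile normalization (0.0298), after quantile normalization of the processed signal (0.0397) and on the authors' deposited value table (0.0371). It also passed in the fit of these 2 groups alone (0.048) and with the intensity trend (0.0265), and not under the remaining settings. Without naive replicate 1 the 2 differences were -0.52 and -0.57.

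The probe of Id2 that ends on the stop codon, printed above, also put CD44hi highest and Treg lowest, while CD44lo and naive overlapped on it. It stood at 1.53 and 1.3 in Treg, 3.71 and 3.68 in CD44hi, 2.13 and 2.01 in CD44lo, and 1.78 and 2.50 in naive. Its difference was 1.55 ± 0.25 in CD44hi against naive (adjusted p = 0.00568) and -2.28 ± 0.25 in Treg against CD44hi (adjusted p = 0.00377), in the fit of every probe on its own. Within slides 1 and 2 the brighter probe gave -2.21 and -2.29 for Treg against CD44hi, and 1.71 and 1.89 for CD44hi against naive.

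Id2 and Nfil3 are high in NK and innate lymphoid cells, whose 8 markers summed to 0.62 to 0.797 times the 75th percentile in Treg, 2.82 to 3.29 in CD44hi, 2.93 to 3.84 in CD44lo and 6.7 to 8.45 in naive. Single markers ran both ways beneath that sum. It overlapped between CD44hi and CD44lo, where 3 of the 6 tested markers were called higher in CD44hi and 0 lower. Ncr1, Klre1 and Klrk1 were not well above background in Treg, CD44lo and naive, and Klre1 was not in CD44hi either. Of 6 tested, 2 rose and 3 fell in Treg, 3 rose and 1 fell in CD44hi, and 1 rose and 2 fell in CD44lo against naive. The fitted list medians in these comparisons were -0.58, 0.36 and -0.49, beside -0.20, -0.15 and -0.13 for all genes. Klrd1 (CD94) was lower in all 3, at -5.60 ± 0.30, -2.49 ± 0.30 and -1.56 ± 0.30 on the log2 scale (adjusted p = 6.9e-05, 0.00142 and 0.0311), the CD44lo call being lost without CD44lo replicate 2 or naive replicate 2 (0.201 and 0.161). Klrk1, an activating receptor, was at least 10.4-fold higher in CD44hi than in naive (adjusted p = 2.5e-04) and at least 12.2-fold lower in Treg than in CD44hi (adjusted p = 0.00344). Its fold in CD44hi against naive was 3.24 after normexp and quantile normalization. Klrk1 is also among the rises counted in Treg against naive, where neither group was well above background, so that call measured no rise. It did not pass after normexp and quantile normalization (adjusted p = 0.117). Klrk1 passed the filter only through CD44hi, so its part in the CD44hi counts against naive and CD44lo was partly fixed by the filter. The part of these markers in the Id2 and Nfil3 values was not tested.

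Ahr, the aryl hydrocarbon receptor, was measured by 10 spots of 1 probe on each array (chr12:33345024-33345083, mm7, minus strand). It stood at -0.11 and -0.07 in Treg, -0.26 and 0.03 in CD44hi, -1.25 and -1.18 in CD44lo, and -4.12 and -3.95 in naive. Treg and CD44hi overlapped, CD44lo lay between, and naive lay far below. The 10 spots varied with an SD of 0.0346 to 0.0935 on the non-naive arrays and of 0.19 and 0.328 on the naive arrays, all of them well above background. Against naive Ahr was 15.4-fold higher in Treg (3.95 ± 0.16, adjusted p = 3.5e-05), 15.1-fold higher in CD44hi (3.92 ± 0.16, adjusted p = 3.8e-05) and 7.07-fold higher in CD44lo (2.82 ± 0.16, adjusted p = 2.5e-04). The folds were 7.86, 7.58 and 3.72 after normexp and quantile normalization and 7.89, 8.28 and 4.17 on the authors' deposited value table, all still called. Within the slides these were 3.85 and 4.05 in Treg, 3.69 and 4.15 in CD44hi, and 2.77 and 2.87 in CD44lo.

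Ahr was also higher in Treg than in CD44lo, by 2.18-fold (1.13 ± 0.16, adjusted p = 0.013), and in CD44hi than in CD44lo, by 2.14-fold (1.1 ± 0.16, adjusted p = 0.00926). Treg and CD44hi differed by 0.03 ± 0.16 (adjusted p = 0.949), and the sign of that difference turned on the authors' deposited value table. The Treg against CD44lo call was lost without Treg replicate 1 or 2 (adjusted p = 0.0801 and 0.0971) and without CD44lo replicate 1 or 2 (0.115 and 0.072). The CD44hi against CD44lo call was lost without CD44hi replicate 2 (0.0666) and without CD44lo replicate 1 or 2 (0.0894 and 0.0576). The first was also lost without the filter on dim probes (0.0542).

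Runx2 is the last of the 8. Its brightest probe, also spotted 10 times, stood at -0.27 and -0.22 in Treg, 0.77 and 0.98 in CD44hi, -1.62 and -1.3 in CD44lo, and -5.58 and -4.92 in naive. The 4 groups did not overlap, with CD44hi highest and naive lowest. The spots varied with an SD of 0.0304 to 0.0599 on the non-naive arrays and of 0.591 and 0.381 on naive replicates 1 and 2, where 9 and 10 of the 10 were well above background. Against naive Runx2 was 32.2-fold higher in Treg (5.01 ± 0.25, adjusted p = 5.7e-05), 69.9-fold higher in CD44hi (6.13 ± 0.25, adjusted p = 3.5e-05) and 13.8-fold higher in CD44lo (3.79 ± 0.25, adjusted p = 3.6e-04). These folds depended on the scaling: after normexp and quantile normalization they were 10.2, 22 and 4.73, 11.8, 25.1 and 5.33 on the authors' deposited value table, and with the mean of the 4 probes 11.5, 23 and 6.64, all still called. Slides 1 and 2 taken alone gave 4.66 and 5.36 in Treg, 5.69 and 6.56 in CD44hi, and 3.62 and 3.96 in CD44lo.

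The non-naive groups also differed in Runx2. It was 5.06-fold higher in CD44hi than in CD44lo (2.34 ± 0.25, adjusted p = 0.00338), 2.33-fold higher in Treg than in CD44lo (1.22 ± 0.25, adjusted p = 0.0401) and 2.17-fold lower in Treg than in CD44hi (-1.12 ± 0.25, adjusted p = 0.0405). Within slides 1 and 2 the Treg against CD44hi difference was -1.04 and -1.21 and the Treg against CD44lo difference 1.04 and 1.40. With the slide as a block neither passed (adjusted p = 0.0616 for Treg against CD44hi and 0.0607 for Treg against CD44lo), nor with the mean of the 4 probes (0.1 and 0.226) or without the filter on dim probes (0.113 and 0.122). The Treg against CD44lo call was lost without any 1 of the 6 Treg, CD44hi or CD44lo arrays (adjusted p = 0.16 and 0.221 without Treg replicates 1 and 2, 0.0581 without either CD44hi array, and 0.26 and 0.103 without CD44lo replicates 1 and 2). The Treg against CD44hi call was likewise lost without any 1 of the same 6 arrays (0.198 and 0.178, 0.0979 and 0.203, and 0.069 without either CD44lo array).

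The other Runx2 probes split by position. The probe 138 bases upstream of the brightest (chr17:42727941-42728000) stood at -0.62 and -0.75 in Treg, 0.41 and 0.49 in CD44hi and -2.07 and -1.66 in CD44lo, and was not well above background in naive. It was at least 35.1-fold, 77-fold and 15.5-fold higher in Treg, CD44hi and CD44lo than in naive (adjusted p = 2.93e-05, 2.49e-05 and 1.77e-04), where a bound sets the bright group's mean against the higher of the dim probe and the lowest signal well above background on each naive array. All such bounds hold under this scaling only. On this probe Treg was 1.13 ± 0.19 lower than CD44hi on the log2 scale (difference -1.13, adjusted p = 0.0181). The probe 3911 bases upstream (chr17:42731714-42731773) stood at -4.0 and -4.14 in Treg, -3.10 and -2.86 in CD44hi and -5.13 and -4.76 in CD44lo, was not well above background in naive, and was at least 3.89-fold, 8.29-fold and 2.13-fold higher in these groups. The start-codon probe, 209684 bases upstream in the genome, was not well above background on any of the 8 arrays, with values between -8.77 and -6.28 that have no order. It measured no difference between the groups.

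**Figure D3:**
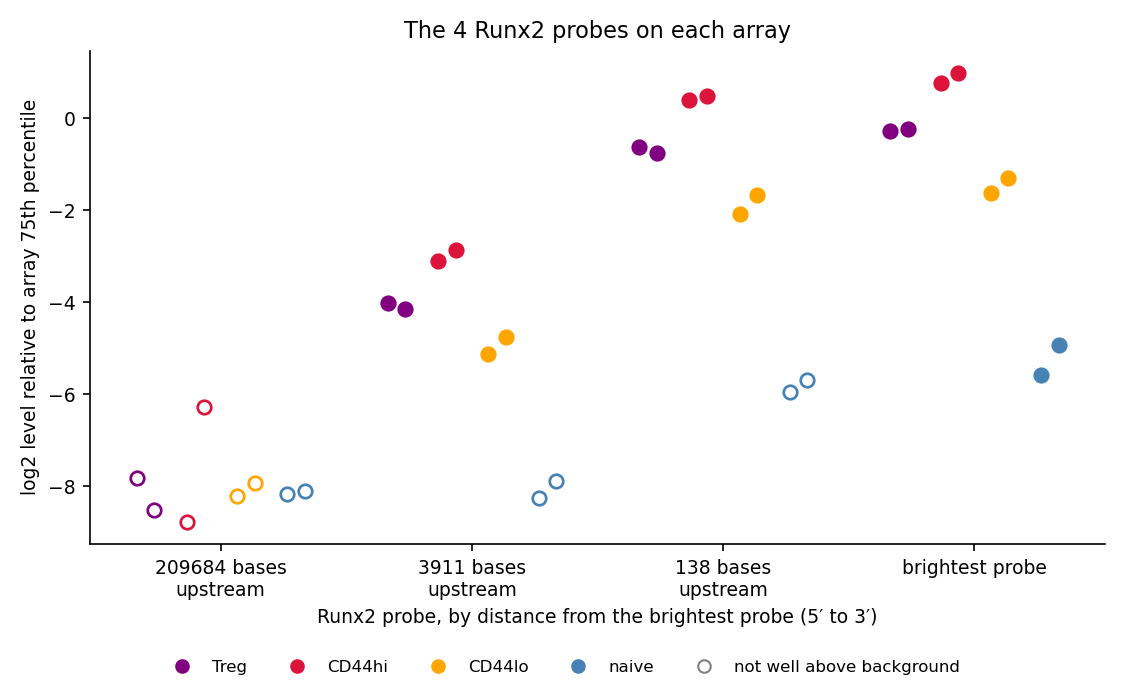
The 4 Runx2 probes, ordered 5′ to 3′ by their distance in the genome from the brightest probe (x axis), with the log2 level on each array relative to the 75th percentile (y axis); colours are Treg, CD44hi, CD44lo and naive, and open points were not well above background. The 3 probes within 3911 bases show the same order of groups, and the probe 209684 bases upstream is open on all 8 arrays.

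Genes that work with these factors were described from 7 lists, with the same fit. Against naive, 21.9% of all genes were called in either direction in Treg, 27.8% in CD44hi and 5.29% in CD44lo. The counts in the lists are to be read beside these shares. Among AP-1 and IRF partners of Batf and Irf4, of 14 tested genes 1 rose and 1 fell in Treg against naive and 1 rose and 2 fell in CD44hi against naive, and the list's median difference was -0.55 in both, beside -0.20 and -0.15 for all genes. Irf8, an IRF that also binds composite elements, was 5.03-fold higher in Treg (2.33 ± 0.25, adjusted p = 0.00103) and 3.51-fold higher in CD44hi (1.81 ± 0.25, adjusted p = 0.0026). Jun, the founding AP-1 subunit, fell by 1.60 ± 0.20 on the log2 scale in CD44hi (adjusted p = 0.00159). Fosl2, a Fos-related subunit, fell by 1.89 ± 0.21 in Treg and by 1.23 ± 0.21 in CD44hi (adjusted p = 0.0012 and 0.00644), but its second detected probe was higher in CD44hi, at 0.60. In CD44lo against naive limma called 0 of the 14, and 7 had an unadjusted p under 0.05, with a median of -0.48.

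Among the E proteins and other Id genes, 6 were tested and the E proteins Tcf3, Tcf4 and Tcf12 did not pass in any comparison with naive (log2 differences between -0.47 and -0.00). Lyl1, a helix-loop-helix partner of E proteins, rose 6.97-fold in Treg (2.80 ± 0.32, adjusted p = 0.00135), 2.3-fold in CD44hi and 3.11-fold in CD44lo (adjusted p = 0.0323 and 0.0338). Its CD44hi and CD44lo calls were lost without any 1 of the 6 Treg, CD44hi or CD44lo arrays (adjusted p = 0.05 to 0.13 in CD44hi and 0.0546 to 0.226 in CD44lo). Id1 fell by 1.49 ± 0.20 in CD44hi against naive (adjusted p = 0.00237; -0.86 after normexp and quantile normalization), while Id2 rose there, and Id3 did not pass in CD44hi (0.64 ± 0.29, adjusted p = 0.15). The medians of the 6 lay between -0.18 and -0.06 against naive.

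Factors set against or beside Prdm1 moved both ways. Of 12 tested, 3 rose and 4 fell in Treg, 6 rose and 6 fell in CD44hi, and 3 rose and 1 fell in CD44lo, each against naive. The fitted list medians were -0.48, 0.21 and 0.25, beside -0.20, -0.15 and -0.13 for all genes. With dim genes at their bounds, those in CD44hi and CD44lo were 0.08 and -0.08. Lef1, Bach2 and Tcf7, factors of naive and memory T cells, were called lower in Treg and CD44hi, with Lef1 down by 2.35 ± 0.26 and 2.75 ± 0.26, Bach2 down by 1.32 ± 0.19 and 2.94 ± 0.19, and Tcf7 down by 1.64 ± 0.15 and 0.60 ± 0.15 on the log2 scale. The Tcf7 call in CD44hi (adjusted p = 0.0264) was lost without any 1 Treg, CD44hi or CD44lo array (0.0518 to 0.131) and under other scalings (0.131 to 0.14), and the Bach2 call in Treg with the mean of its probes (0.0806). Foxo1, which maintains naive T cells, stood at -0.48 ± 0.15 in Treg (adjusted p = 0.067) and fell by 0.97 ± 0.15 in CD44hi (adjusted p = 0.00449). Bcl6, the germinal-centre repressor, and Eomes rose in CD44hi, by 1.32 ± 0.40 and 1.02 ± 0.17 (adjusted p = 0.0498 and 0.00667). The Bcl6 call was lost without any 1 array other than CD44hi replicate 1 and naive replicate 2. It was also lost without the filter on dim probes (0.116), with the slide as a block (0.0685) and in the fit of these 2 groups alone (0.106). Another centre, the mean of its probes and a fit of every probe on its own lost it too (0.0536 to 0.0555). The Eomes call was lost in the fit of these 2 groups alone (0.0507). The Foxo1 difference in Treg passed with an intensity trend (0.0373), and not under the other settings that kept all arrays. Foxo1, Bcl6 and Eomes were added here after their values were seen. Tbx21 (T-bet), the Th1 regulator, rose 14.1-fold in Treg, 103-fold in CD44hi and 18.1-fold in CD44lo (adjusted p = 7.9e-04, 8.0e-05 and 0.00136). Hopx, a homeodomain cofactor, rose 8.01-fold, 6.7-fold and 2.85-fold in the same order. Zeb2, a zinc-finger repressor that acts with T-bet in effector CD8 T cells, was not well above background in naive on its brightest probe and was at least 2.14-fold, 7.27-fold and 2.2-fold higher. It passed the filter only through the other groups, so its part in the counts of rises was partly fixed by the filter. Under normexp and quantile normalization Zeb2 was 1.4-fold, 2.56-fold and 1.39-fold higher. Its 5 probes differed widely, and with their mean the Treg and CD44lo calls were lost (adjusted p = 0.082 and 0.274).

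The Ahr pathway list held 10 tested genes, of which 4 rose and 1 fell in Treg, 4 rose in CD44hi and 3 rose in CD44lo against naive. The list medians were 0.04, -0.02 and -0.09 beside -0.20, -0.15 and -0.13 for all genes. Arnt2, Cyp1a1 and Ahrr were not well above background in naive and passed the filter only through other groups. Their part in these counts of rises was thus partly fixed by the filter. The obligate partner Arnt did not pass, at -0.05 ± 0.17, -0.20 ± 0.17 and -0.07 ± 0.17. Its paralog Arnt2 was not well above background in naive and was at least 10.5-fold higher in Treg, 9.63-fold in CD44hi and 9.54-fold in CD44lo (adjusted p = 1.6e-04, 1.5e-04 and 4.3e-04). The Arnt2 folds were 3.76, 3.56 and 3.49 after normexp and quantile normalization, all still called. Cyp1a1, the best known Ahr target, was at least 1.41-fold, 4.12-fold and 1.21-fold higher, and it was 1.77 ± 0.25 higher in CD44hi than in CD44lo on the log2 scale (adjusted p = 0.00866) and lower in Treg than in CD44hi by a log2 difference of -1.54 ± 0.25 (adjusted p = 0.0144). Ahr itself was not called different between Treg and CD44hi. Ahrr, the repressor of the receptor, was at least 2.27-fold, 2.7-fold and 1.93-fold higher, and Nqo1, an oxidoreductase induced through Ahr, rose 3.04-fold in Treg and 4.81-fold in CD44hi (adjusted p = 0.0151 and 0.00309) with 0.13 ± 0.32 in CD44lo. After normexp and quantile normalization the Nqo1 folds were 1.54 and 2.11, both still called. The Nqo1 call in Treg was lost without Treg replicate 1 or 2 (0.0643 and 0.0935), and the Ahrr call in CD44lo (adjusted p = 0.029) without any 1 of the Treg, CD44hi or CD44lo arrays (0.0508 to 0.173). After normexp and quantile normalization Cyp1a1 was 1.42-fold, 2.04-fold and 1.34-fold higher in Treg, CD44hi and CD44lo, and Ahrr 1.26-fold, 1.31-fold and 1.2-fold higher. The CD44lo differences of Ahrr and Cyp1a1 did not pass there (0.174 and 0.0812). Tiparp, another known target, fell by 0.78 ± 0.19 in Treg (adjusted p = 0.0304), a call lost without any 1 array other than naive replicate 1 (0.0503 to 0.196). The Cyp1a1 difference in Treg against CD44hi was lost without Treg replicate 1 or 2 or CD44hi replicate 1 (0.0704 to 0.0977).

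Of 10 tested Runx and CBF complex genes, 3 fell in Treg, 1 rose and 3 fell in CD44hi, and 1 fell in CD44lo against naive. Of all genes, 21.9%, 27.8% and 5.29% were called in either direction there, so these counts stand only a little above those shares. The list medians were -0.40, -0.07 and -0.05, beside -0.20, -0.15 and -0.13 for all genes. Runx1 and the shared subunit Cbfb did not pass in any of these (Runx1 -0.12 ± 0.15, -0.02 ± 0.15 and 0.02 ± 0.15). Runx3 fell by 0.80 ± 0.18 in Treg (adjusted p = 0.0208; lost without any 1 Treg or CD44lo array, at 0.0526 to 0.143), where Runx2 rose. The corepressor Tle1, which Runx proteins recruit, fell by 0.81 ± 0.14, 2.65 ± 0.14 and 0.84 ± 0.14 in Treg, CD44hi and CD44lo (adjusted p = 0.00943, 6.8e-05 and 0.0204). The Treg call was lost without Treg replicate 1 or 2 (0.0695 and 0.0577), and the CD44lo call without any 1 Treg, CD44hi or CD44lo array (0.0502 to 0.221). Cbfa2t3, another corepressor, rose 4.69-fold in CD44hi (2.23 ± 0.48, adjusted p = 0.0156), which was 3.04-fold after normexp and quantile normalization and was lost without CD44hi replicate 2 or either naive array (0.0512 to 0.0765).

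The clock and D-box list holds the network that Nfil3 and Bhlhe40 belong to. Of its 12 tested genes, 3 rose in Treg and 3 rose and 2 fell in CD44hi against naive. Of all genes, 21.9% and 27.8% were called in either direction there, so the Treg count was near that share. The list medians were 0.24 in Treg, -0.07 in CD44hi and 0.04 in CD44lo, beside -0.20, -0.15 and -0.13 for all genes. Hlf, a D-box activator that competes with Nfil3 for its sites, rose 5.05-fold in Treg (2.34 ± 0.32, adjusted p = 0.00304) and 16.3-fold in CD44hi (4.02 ± 0.32, adjusted p = 2.6e-04). Per3 rose 2.9-fold and 2.62-fold (adjusted p = 0.012 and 0.0145), and lost the Treg call without Treg replicate 1 or 2 or naive replicate 2 (0.0577 to 0.0771) and the CD44hi call without CD44hi replicate 2 or naive replicate 2 (0.084 and 0.067). After normexp and quantile normalization neither difference of Per3 passed (0.40 and 0.26, adjusted p = 0.05 and 0.138), nor did that in CD44hi on the authors' deposited value table (0.0969). The Hlf folds were 2.38 and 6.53 after normexp and quantile normalization, both still called. The probes of Nr1d1 did not all run the same way in Treg, and those of Cry2 did not in CD44hi. In CD44lo limma called 0 of the 12, and 2 had an unadjusted p under 0.05.

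In the effector cytokine and surface list, 12 of 14 tested genes were called higher in Treg, 14 in CD44hi and 11 in CD44lo against naive, with fitted medians of 3.71, 5.79 and 3.80. Of the 14, 7 were not well above background in naive and passed the filter only through other groups, where they are brighter. The counts of rises are thus partly fixed by the filter, and these medians are no measured levels of difference. With such genes at their bounds the medians were 3.09, 4.54 and 4.35. The last leaves out 2 genes that have no fold in CD44lo, so it is over another set of genes and cannot be ranked with the other 2. Gzmb, a cytotoxic protease, was at least 109-fold, 52.2-fold and 19.5-fold higher, and Il10, an inhibitory cytokine, at least 26.6-fold, 27.5-fold and 21.4-fold higher. Under normexp and quantile normalization Gzmb was 23.9-fold, 11.7-fold and 4.81-fold higher and Il10 6.34-fold, 6.77-fold and 5.56-fold, all still called. Il22, a cytokine for which Ahr is needed in lymphocytes, was at least 2.65-fold, 19.8-fold and 1.81-fold higher, and Il17a at least 9.5-fold higher in CD44hi. Under normexp and quantile normalization the CD44hi folds of Il22 and Il17a were 6.18 and 3.25. The Il22 call in CD44lo (adjusted p = 0.0261) was lost without either CD44lo array or naive replicate 2 (0.109 to 0.131), and after normexp and quantile normalization neither the Treg nor the CD44lo difference of Il22 passed (0.221 and 0.481). In Treg against CD44hi, 2 of the list were higher and 6 lower, with Il21 at a log2 difference of -3.95 ± 0.60 and Il4 at -4.65 ± 0.55 (adjusted p = 0.0108 and 0.00431). The Il21 call was lost without Treg replicate 1 or CD44hi replicate 2 (0.0803 and 0.0538).

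**Figure D4:**
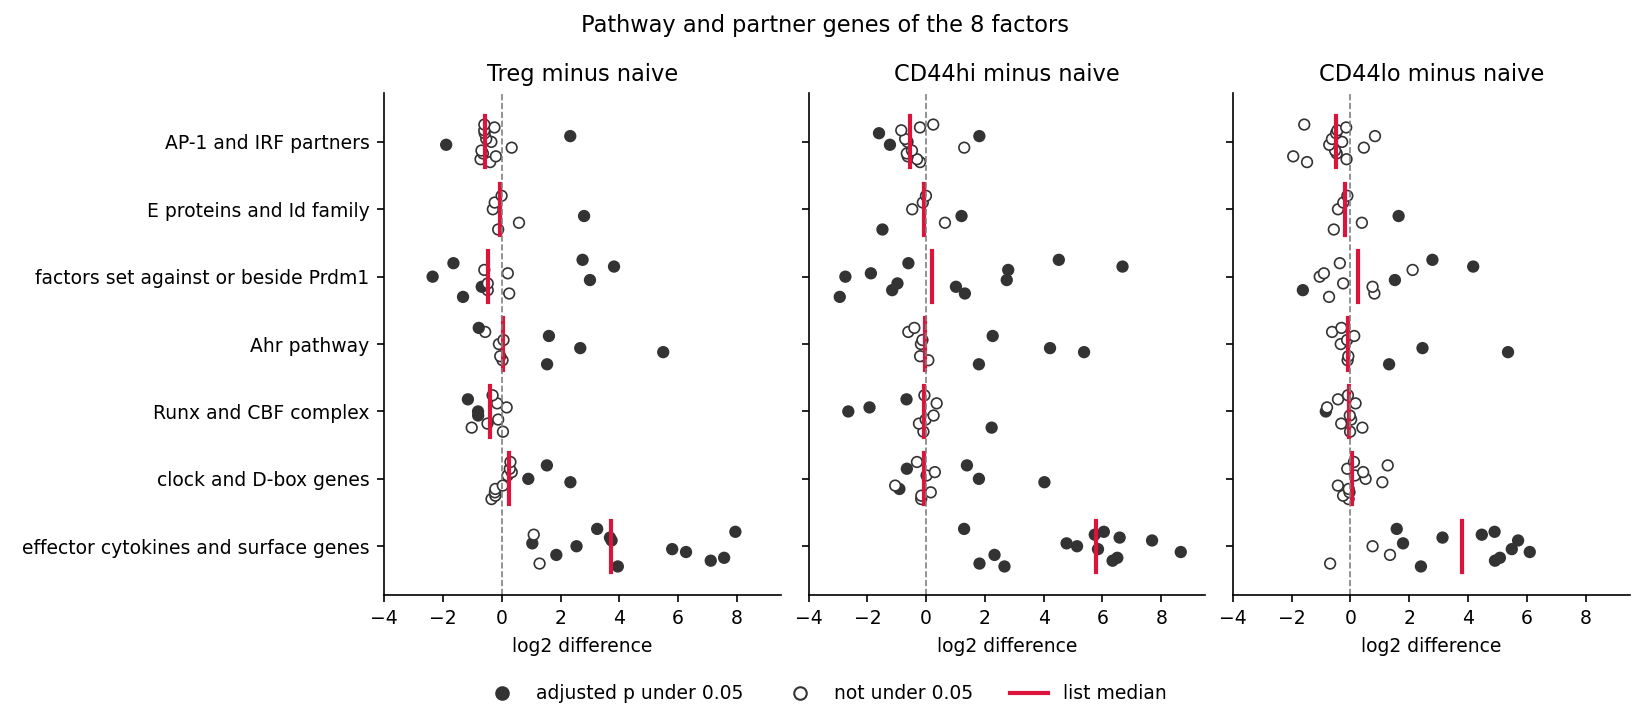
Log2 difference from naive (x axis) of each tested gene in the 7 partner and pathway lists (rows), in Treg, CD44hi and CD44lo; filled points passed an adjusted p of 0.05 and red lines are list medians. The effector cytokine and surface genes lie mostly above 0, with fitted medians of 3.71, 5.79 and 3.80, and the other lists have medians between -0.55 and 0.25.

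As a description over the 8 arrays, which share their groups and so follow any gene that separates them, the 8 factors fell into a group of 6 and 2 others. Prdm1, Irf4, Bhlhe40, Nfil3, Ahr and Runx2 had pairwise Pearson correlations of 0.943 to 0.994, the highest for Prdm1 with Irf4 and for Irf4 with Ahr. Batf correlated with these 6 at 0.849 to 0.932, and Id2 correlated with the other 7 at 0.165 to 0.478. Among 13896 other tested genes with a current RefSeq symbol, those most like each factor by Pearson correlation were Il2rb, Myo1c and Rnf216 for Prdm1, Mdfic, Il1rl1 and Il2rb for Irf4, Ift22, Fbxl19 and Aph1b for Batf, and Cntln, Ankrd6 and Egr4 for Bhlhe40. For Nfil3 they were Hmgn3, Gstm5 and Adap1, for Id2 Ankrd35, 1700020L24Rik and Sult4a1, for Ahr Ccr6, Frmd4b and Niban1, and for Runx2 Zbtb32, Kctd17 and S100a6. All 24 of these correlations lay between 0.989 and 0.999.

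Several of these neighbours are well known in T cells. Il2rb, the shared beta chain of the IL-2 and IL-15 receptors, differed from naive by 4.96 in Treg, 4.25 in CD44hi and 3.21 in CD44lo on the log2 scale. Il1rl1, the IL-33 receptor, differed by 6.93, 6.28 and 4.16, and Ccr6, a chemokine receptor of Th17 cells and regulatory T cells, by 7.69, 7.57 and 5.11. Ankrd35, nearest to Id2, differed by -0.54, 4.01 and 0.76. Zbtb32, a zinc-finger repressor, differed by 6.71, 8.53 and 5.11 and S100a6, a calcium-binding protein, by 5.90, 7.63 and 4.98. The differences of these neighbours are fitted values under this scaling only. Other scalings and bounds were not worked out for them, so they are no measured sizes.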

How the data were processed

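The authors scanned 8 one-colour Agilent mouse arrays; per the file headers the image software was Feature Extraction 9.5.1.1. The processed signal they deposited is an intensity per spot, background-subtracted by that software, and no normalization between arrays had been done. The spot flags (unit other) are per the file headers. The value table the authors deposited is on a log2 scale, with column medians of 6.86 to 6.88, and was an alternative only. The submitters' processing notes name limma.

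Spots flagged as non-uniform or as population outliers were dropped, unless all spots of that probe on the array were flagged. The log2 signals of the remaining spots of 1 probe were averaged. Each array's 75th percentile over probes, on the log2 scale, was then subtracted. A gene was its brightest probe, tested where some group had that probe flagged well above background on each of its 2 arrays. RefSeq (GRCm38.p6) gave current symbols through accession or symbol. limma 3.58.1 in R 4.3.3 (lmFit, contrasts.fit, eBayes) fitted all 8 arrays in 4 groups, with Benjamini-Hochberg adjustment over 17996 genes. The number of arrays limits the precision. The fit was checked on simulated data.

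The members and lists were chosen with earlier results of these data known. Text names the members, the 3 genes most correlated with each (only genes with a current symbol), and, from each list and comparison, up to 3 called genes with the largest rise and 3 with the largest fall, with the values of such genes in the other comparisons and a few list members that did not pass. No gene annotation of the array's build (mm7) was used, so exons and UTRs of probes are not given. Alternatives covered scaling, filter, probe summary, blocks, groups in the fit, variance trend and leaving out each array.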

Additional observations from a re-analysis of the deposited data

How the results depend on the processing

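Directions and calls of the 48 member differences were recomputed under 12 other settings, where 542 of 576 values kept both, 13 lost the call, 20 gained one and 1 changed sign. The members called in Treg against CD44lo, 3 of 8, became 5 after normexp with quantile normalization, on the authors' deposited value table and with an intensity trend, and 0 without the filter on dim probes, where more genes are adjusted over. The members called in Treg against CD44hi, 2 of 8, became 1 without that filter, after averaging the probes of each gene and with the slide as a block. Leaving out 1 array gave 0 to 5 members in Treg against CD44lo, 2 to 4 in CD44hi against CD44lo, 1 to 2 in Treg against CD44hi, 6 to 7 in Treg, 7 to 8 in CD44hi and 5 to 6 in CD44lo against naive; the lone array of a group is then assumed to vary like the others. Over these 384 values, 33 calls were lost, 5 gained and 2 changed sign. Signs changed for Ahr in Treg against CD44hi, to -0.07 on the authors' table and within -0.114 to 0.174 when 1 array was left out (lowest without CD44hi replicate 1), and for Batf in the same comparison, within -0.32 to 0.005 (highest without CD44hi replicate 2). The cause was not tested.

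With the replicate number as a block, 7, 8 and 6 members were called in Treg, CD44hi and CD44lo against naive and 4, 5 and 2 in Treg against CD44lo, CD44hi against CD44lo and Treg against CD44hi. The gains were Batf in Treg against naive (adjusted p = 0.018) and Bhlhe40 in Treg and CD44hi against CD44lo (0.0266 and 0.00381). Deviations of same-numbered arrays correlated at 0.056 to 0.332 across 17996 genes, which with 2 pairs does not settle a pairing.

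Counts over all genes moved further. Without the filter 2301, 3129 and 606 genes were called in Treg, CD44hi and CD44lo against naive (3941, 4998 and 952 with it), and 382, 842 and 776 in Treg against CD44lo, CD44hi against CD44lo and Treg against CD44hi (1001, 1686 and 1474 with it). The filter on all 8 arrays gave 621 in CD44lo against naive, and fits of 2 groups gave 2522 and 2610 in Treg and CD44hi. Without naive replicate 1 the 3 counts against naive were 9200, 9231 and 7191, and over all arrays left out the 6 ranges were 1789 to 9200, 2594 to 9231, 506 to 7191, 188 to 1641, 513 to 2765 and 535 to 2635. The median over all genes in Treg against naive was -0.20, and -0.09 after normexp with quantile normalization. Sizes moved more than calls: of 157 called differences from naive among the named list and marker genes, 85 changed by over 1.5 times after normexp with quantile normalization and 76 on the authors' table, all to a smaller size, and Bhlhe40, Ahr and Runx2 shrank likewise. Bhlhe40 then exceeded Runx2 in Treg against naive (3.54 against 3.35 on the log2 scale after normexp). Signal near background limits the naive values of Runx2 and its partners with bounds.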
